A study of Homo sapiens with 12 samples.

Results

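Matrix metalloproteinases and their inhibitors were described in endometrial cells as 10 genes of the 58735 in the counts table. The list held 6 metalloproteinases (MMP1, MMP2, MMP3, MMP7, MMP10 and MMP14), 3 tissue inhibitors of metalloproteinases (TIMP1, TIMP2 and TIMP3) and BSG, which encodes basigin. Each symbol was matched to 1 Ensembl gene, and 9 of the 10 genes had a count in at least 1 library. RNA was sequenced from HEC-1A, a line of epithelial origin from an endometrial adenocarcinoma, and from T-HESC, endometrial stromal fibroblasts immortalised with telomerase. Both lines were cultured for 32 h either with 15 µM AG-205, a compound used as a ligand of the progesterone receptor membrane component PGRMC1, or with its solvent DMSO alone. Each of the 4 groups had 3 libraries, which came from separate cultures, so replicate spread refers to cultures of 1 line and not to different donors.

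Metalloproteinases are zinc-dependent enzymes that are made as inactive proenzymes and cut collagens, proteoglycans and other matrix proteins. TIMPs bind their active sites, TIMP2 also takes part in the activation of proMMP2 at the cell surface by the membrane-bound MMP14, and basigin is a surface glycoprotein known as an inducer of metalloproteinases in neighbouring stromal cells. In the endometrium these genes are best known for their part in the breakdown of the stromal matrix at menstruation, and their expression there is restrained by progesterone.

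Total counts per library lay between 7168542 and 15178276, so 3 counts in a library were worth 0.205 to 0.359 CPM (counts per 1000000, scaled to library totals adjusted by the TMM method). The epithelial markers EPCAM, CDH1, KRT8, KRT18, KRT19 and CLDN4 summed to 1300 to 2050 CPM in the HEC-1A libraries and to 221 to 387 CPM in the T-HESC libraries. The 8 stromal markers VIM, COL1A1, COL1A2, COL3A1, PDGFRB, THY1, DCN and LUM summed to 8.44 to 14.6 and 12800 to 27100 CPM. The endothelial markers did not exceed 1.05 CPM in sum in any library, mostly from VWF and PECAM1, and the leukocyte markers did not exceed 4.59 CPM. AG-205 and DMSO libraries of HEC-1A separated along the first principal component, which held 46.3% of the variance. That of T-HESC held 49.5% and separated 1 library, AG-205 replicate 1 (95.8), from the rest (-40.3 to 2.41). Results in T-HESC are therefore also given without that library for some members, or as ranges over single libraries left out.

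MMP1, MMP2, MMP3, MMP10 and MMP14 were expressed in T-HESC and low or near the limit of detection in HEC-1A, and MMP7 was not detected in either line. In DMSO, 6 of the 7 members tested were higher in T-HESC (edgeR's quasi-likelihood test, adjusted p under 0.05 and log2 fold change above 1 or below -1), and BSG was the exception. DESeq2 called 8 members, MMP10 and TIMP3 in addition, and its share over all genes is not given here. The background in edgeR was large, since 44.6% of the 14789 genes tested passed these limits between the lines. MMP1, MMP2 and MMP3 passed the filter on low counts through their T-HESC libraries alone, and MMP7, MMP10 and TIMP3 did not pass it, so the count describes only the members that could be tested. A lower share of cells with a transcript and less RNA per cell cannot be told apart in such bulk cultures.

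**Figure D1:**
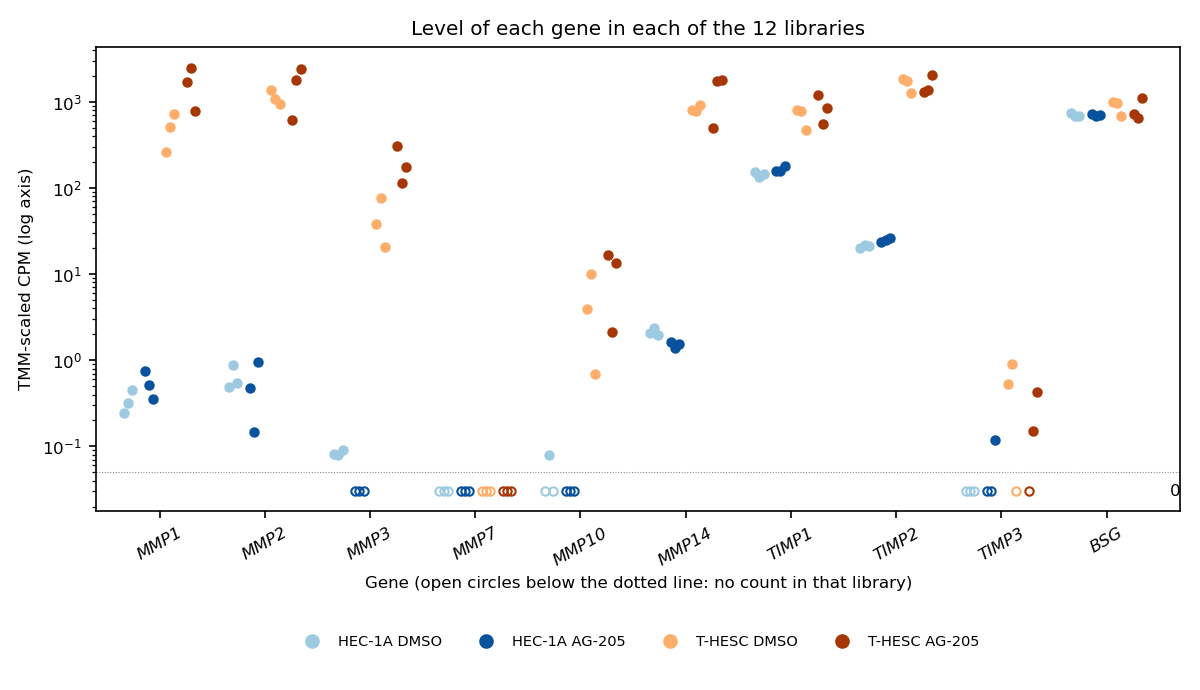
TMM-scaled CPM (log axis) of the 10 genes in each of the 12 libraries, coloured by line and treatment, with open circles below the dotted line for libraries without a count. MMP1, MMP2, MMP3, MMP10 and MMP14 stand high in T-HESC and low in HEC-1A, BSG lies between 653 and 1107 CPM in all 12 libraries, and MMP7 has no count.

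MMP1, MMP3, MMP10 and MMP7 belong to a run of 9 metalloproteinase genes on the minus strand of chromosome 11 (GRCh38), which lie in the order MMP7, MMP20, MMP27, MMP8, MMP10, MMP1, MMP3, MMP12 and MMP13. MMP1, the interstitial collagenase that cuts fibrillar collagen (chr11:102789401-102798160), had 3, 4 and 5 counts in the HEC-1A DMSO libraries and 265, 514 and 719 CPM in the T-HESC DMSO libraries. With 16915 counts against 12, the ratio of T-HESC to HEC-1A was 1430 (95% interval 818 to 2770, for counting error only). MMP3, stromelysin-1, which cuts proteoglycans and activates other proenzymes (chr11:102835801-102843609), had 1 count in each HEC-1A DMSO library and 38.0, 75.9 and 20.9 CPM in the T-HESC DMSO libraries. With 1630 counts against 3, the ratio was 551 (95% interval 188 to 2670, for counting error only). MMP1 and MMP3 were called, but they passed the filter on low counts through T-HESC alone, so their calls add nothing to these counts.

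MMP10, stromelysin-2, a close relative of MMP3 (chr11:102770502-102780628), had 1 count in the 3 HEC-1A DMSO libraries together and 179 in those of T-HESC, at 3.92, 9.94 and 0.699 CPM. The T-HESC libraries were spread widely, and the ratio of summed counts was 181 (95% interval 32.2 to 7210, for counting error only). It did not pass the filter on low counts between the lines and was not tested there. MMP7, matrilysin, an epithelial metalloproteinase (chr11:102520508-102530750), had no count in any of the 12 libraries, HEC-1A included, which limits it to 0.359 CPM in the shallowest library. Among the other genes of the run, MMP20 and MMP27 also had no count, and MMP12, macrophage elastase, was the only one besides MMP1, MMP3 and MMP10 with more than 3 counts in a library.

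**Figure D2:**
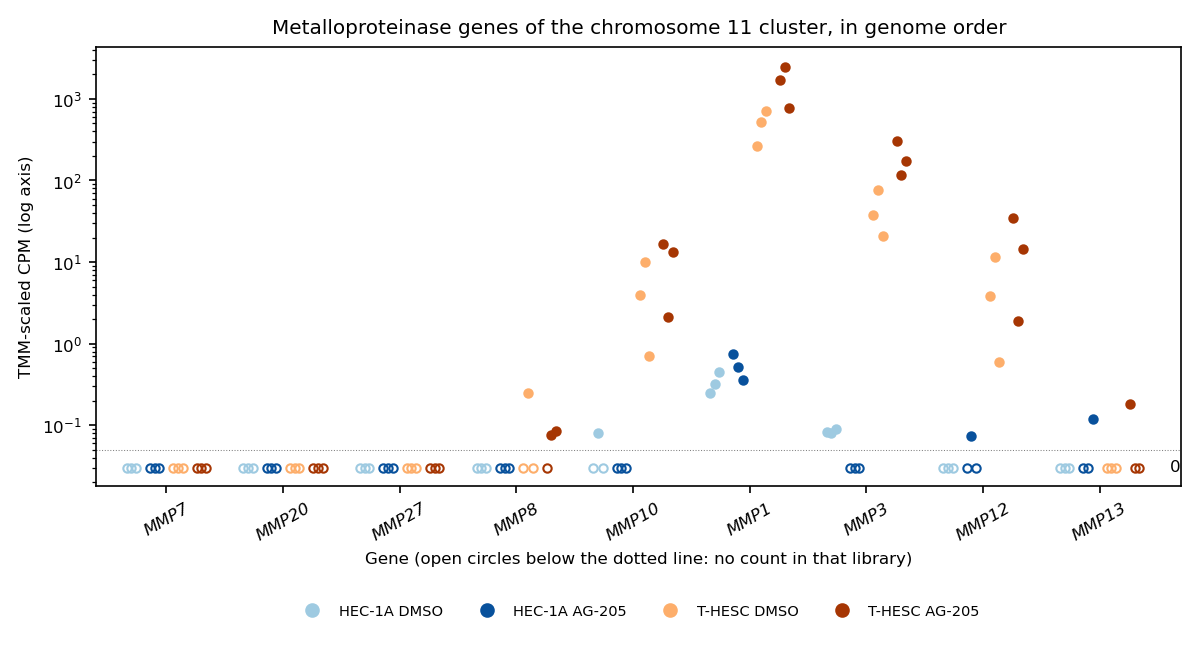
TMM-scaled CPM (log axis) of the 9 metalloproteinase genes of the chromosome 11 run, in genome order and not to distance, in each of the 12 libraries. MMP10, MMP1, MMP3 and MMP12 are neighbours and have signal in every T-HESC library, whereas MMP7, MMP20 and MMP27 have no count.

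MMP2, gelatinase A, which degrades basement membrane collagen (chr16:55389700-55506691), had 6, 11 and 6 counts in the HEC-1A DMSO libraries and 1382, 1070 and 944 CPM in those of T-HESC. MMP14, the membrane-bound enzyme that activates proMMP2 (chr14:22836560-22849041), was at 2.06, 2.39 and 1.98 CPM in HEC-1A and at 809, 784 and 909 CPM in T-HESC. For MMP2, with 40718 counts against 23, the ratio was 1790 (95% interval 1200 to 2830, for counting error only). It was called, but it passed the filter on low counts through T-HESC alone, so the call adds nothing to these counts. MMP14 was 384-fold higher in T-HESC (log2 fold change 8.58, SE 0.145, adjusted p = 3.56e-09, edgeR's quasi-likelihood test).

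The inhibitors were less uniform. TIMP1 (chrX:47582408-47586789), which inhibits most secreted metalloproteinases, was at 154, 135 and 146 CPM in HEC-1A with DMSO and at 806, 784 and 471 CPM in T-HESC. TIMP2 (chr17:78852977-78925387) was at 19.9, 21.9 and 21.5 CPM in HEC-1A and at 1839, 1730 and 1274 CPM in T-HESC. No library of one line overlapped the other for either gene. This is not particular to them, since 38.2% of all genes tested lay wholly higher in T-HESC and 38.4% wholly lower. The gap was 4.7-fold for TIMP1 (log2 fold change 2.23, SE 0.199, adjusted p = 1.23e-05) and 75.9-fold for TIMP2 (6.25, SE 0.18, adjusted p = 1.62e-08, edgeR's quasi-likelihood test). TIMP3 (chr22:32801705-32863041), the inhibitor that stays bound to the matrix, had no count in HEC-1A with DMSO and 7, 11 and 0 counts in T-HESC. With 18 counts against 0 over the groups, the 95% interval of the ratio began at 4.46 (for counting error only). The gene was too low to be tested.

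BSG (chr19:571277-583494) was high in both lines. Its levels were 737, 682 and 679 CPM in HEC-1A with DMSO and 989, 965 and 686 CPM in T-HESC, with 1 T-HESC library inside the HEC-1A range. The log2 fold change of 0.32 (SE 0.143, 95% interval -0.01 to 0.65) did not pass the test (adjusted p = 0.0728, edgeR's quasi-likelihood test, between 1.63e-05 and 0.196 over the alternatives). Exons of BSG overlap BSG-AS1 on the opposite strand over 3.17% of their length, those of MMP1 overlap WTAPP1 on the opposite strand over 8.14%, and TIMP2 shares 3.61% with CEP295NL on the same strand. How reads in such stretches were assigned was not stated, so these small parts of the counts are uncertain.

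Promoter sequences from RefSeq (GRCh38.p14), 250 bases before and 50 after the annotated start, were found for 6 of the 10 members. MMP1, MMP2, MMP3 and TIMP2 had no entry. The 5 below are shown because their genes span the levels seen here, from no read in any library (MMP7), through few anywhere (TIMP3) and reads in T-HESC with 1 read in all of HEC-1A (MMP10) or a low level there (MMP14), to both lines (TIMP1). Capitals mark TGAGTCA, the AP-1 motif, TATAAA, the TATA box, GGGCGG, the GC box, and AGGAAG, an ETS-type motif, each searched on both strands so that the reverse complement is also in capitals. The windows are chr11:102530698-102530997 and chr11:102780579-102780878 on the minus strand, and chr14:22836335-22836634, chrX:47582186-47582485 and chr22:32801455-32801754 on the plus strand.
MMP7: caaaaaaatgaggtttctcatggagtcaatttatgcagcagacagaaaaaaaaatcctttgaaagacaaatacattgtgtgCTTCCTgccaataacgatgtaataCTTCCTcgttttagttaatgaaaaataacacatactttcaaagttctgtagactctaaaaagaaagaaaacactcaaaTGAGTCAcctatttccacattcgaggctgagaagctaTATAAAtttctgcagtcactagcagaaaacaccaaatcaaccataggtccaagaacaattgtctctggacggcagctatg
MMP10: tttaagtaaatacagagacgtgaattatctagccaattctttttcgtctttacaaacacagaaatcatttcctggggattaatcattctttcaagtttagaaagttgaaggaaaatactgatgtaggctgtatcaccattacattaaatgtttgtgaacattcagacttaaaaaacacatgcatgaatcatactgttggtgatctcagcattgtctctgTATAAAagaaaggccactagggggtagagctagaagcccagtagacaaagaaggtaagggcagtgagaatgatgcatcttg
MMP14: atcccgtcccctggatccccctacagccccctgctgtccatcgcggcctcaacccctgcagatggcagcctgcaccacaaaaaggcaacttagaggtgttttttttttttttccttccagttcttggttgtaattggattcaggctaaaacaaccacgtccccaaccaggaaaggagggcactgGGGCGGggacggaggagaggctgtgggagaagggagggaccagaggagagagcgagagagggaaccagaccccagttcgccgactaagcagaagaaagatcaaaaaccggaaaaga
TIMP1: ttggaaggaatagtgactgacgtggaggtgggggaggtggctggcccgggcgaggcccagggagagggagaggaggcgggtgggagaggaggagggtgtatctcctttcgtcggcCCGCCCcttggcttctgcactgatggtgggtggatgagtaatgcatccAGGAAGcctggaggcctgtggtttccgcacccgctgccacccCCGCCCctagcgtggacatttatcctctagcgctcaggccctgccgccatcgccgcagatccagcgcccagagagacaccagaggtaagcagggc
TIMP3: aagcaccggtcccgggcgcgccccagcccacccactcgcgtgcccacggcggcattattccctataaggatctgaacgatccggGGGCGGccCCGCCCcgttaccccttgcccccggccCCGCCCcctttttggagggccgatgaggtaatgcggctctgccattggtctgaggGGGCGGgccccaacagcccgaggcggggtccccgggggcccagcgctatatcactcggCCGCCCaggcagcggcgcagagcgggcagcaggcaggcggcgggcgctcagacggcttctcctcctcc

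Both metalloproteinase promoters of the chromosome 11 run held a TATA box, at -30 in MMP7 and -31 in MMP10, and were poor in G and C, at 35.7% and 36.3% with 4 and 2 CpG dinucleotides. The median over the 35116 promoters of the table was 58.7% with 14 CpG, and 11.5% of them held the TATA letters on either strand. MMP7 also held TGAGTCA at -67, which 4.95% of all promoters had, and AGGAAG on the opposite strand at -169 and -145, a motif of 33.6% of promoters. MMP14, TIMP1 and TIMP3 held GC boxes, as did 45.0% of all promoters. There was 1 in MMP14 at -66 and there were 5 in TIMP3, whose window had 72.7% G and C and 31 CpG. TIMP1 held a pair on the opposite strand at -135 and -45, with AGGAAG at -87 between them. Of these genes, the 1 with both an AP-1 and a TATA match was the 1 without any read. These matches describe letters only, and their relation to the levels was not tested. A motif that is absent from a window may lie elsewhere.

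In T-HESC, no member passed the limits of the test, but the levels of MMP3 and MMP1 were higher in all 3 AG-205 libraries than in any DMSO library. Of the 8 members tested, 0 were called, against 0.0800% of the 13753 genes tested, and 2 (MMP1 and MMP3) had an unadjusted p under 0.05, as had 740 of all genes (edgeR's quasi-likelihood test). DESeq2 on the same libraries called 2 members, MMP1 and MMP3, and 116 genes in all. The 2 members with separate groups compare with 6.23% of all genes tested that lay wholly above DMSO. The median log2 fold change of the 8 members was 0.57, and that of all genes was 0.02.

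MMP3 was at 309, 115 and 175 CPM in AG-205 replicates 1, 2 and 3 and at 38.0, 75.9 and 20.9 CPM in DMSO replicates 1, 2 and 3. The lowest AG-205 library stood above the highest DMSO library, and the highest was replicate 1, which stood apart over all genes. The difference was 4.4-fold (log2 fold change 2.14, SE 0.545, 95% interval 0.88 to 3.39), with an adjusted p of 0.44 in edgeR's quasi-likelihood test. DESeq2 gave 2.13 with an adjusted p of 0.00477, and edgeR without the filter on low counts gave an adjusted p of 1.27e-06. Leaving out AG-205 replicate 1 gave a log2 fold change of 1.65 (adjusted p = 0.272, edgeR's quasi-likelihood test), leaving out DMSO replicate 2 gave 2.75 (adjusted p = 0.707), and over all alternatives the adjusted p ran from 1.27e-06 to 1 for MMP3 and from 0.00117 to 1 for MMP1.

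MMP1 was at 1707, 2456 and 779.6 CPM with AG-205 and at 265, 514 and 719 CPM with DMSO. The groups did not overlap, but AG-205 replicate 3 was only slightly above DMSO replicate 3. The DMSO libraries averaged 499 ± 228 CPM and the AG-205 libraries 1648 ± 840 CPM (SD, n = 3). This was a 3.27-fold difference (log2 fold change 1.71, SE 0.503, 95% interval 0.55 to 2.87, adjusted p = 0.536, edgeR's quasi-likelihood test). The log2 fold change ran from 1.282 to 2.055 when single libraries, AG-205 replicate 1 among them, were left out. DESeq2 gave 1.70 with an adjusted p of 0.0488, and edgeR without the filter gave 1.70 with an adjusted p of 0.00117. Fitting all 12 libraries together gave adjusted p-values of 0.0624 for MMP1 and 0.0545 for MMP3 (edgeR's quasi-likelihood test). The call on both genes thus depended on the tool and the filter, while the direction was kept in every alternative run.

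**Figure D3:**
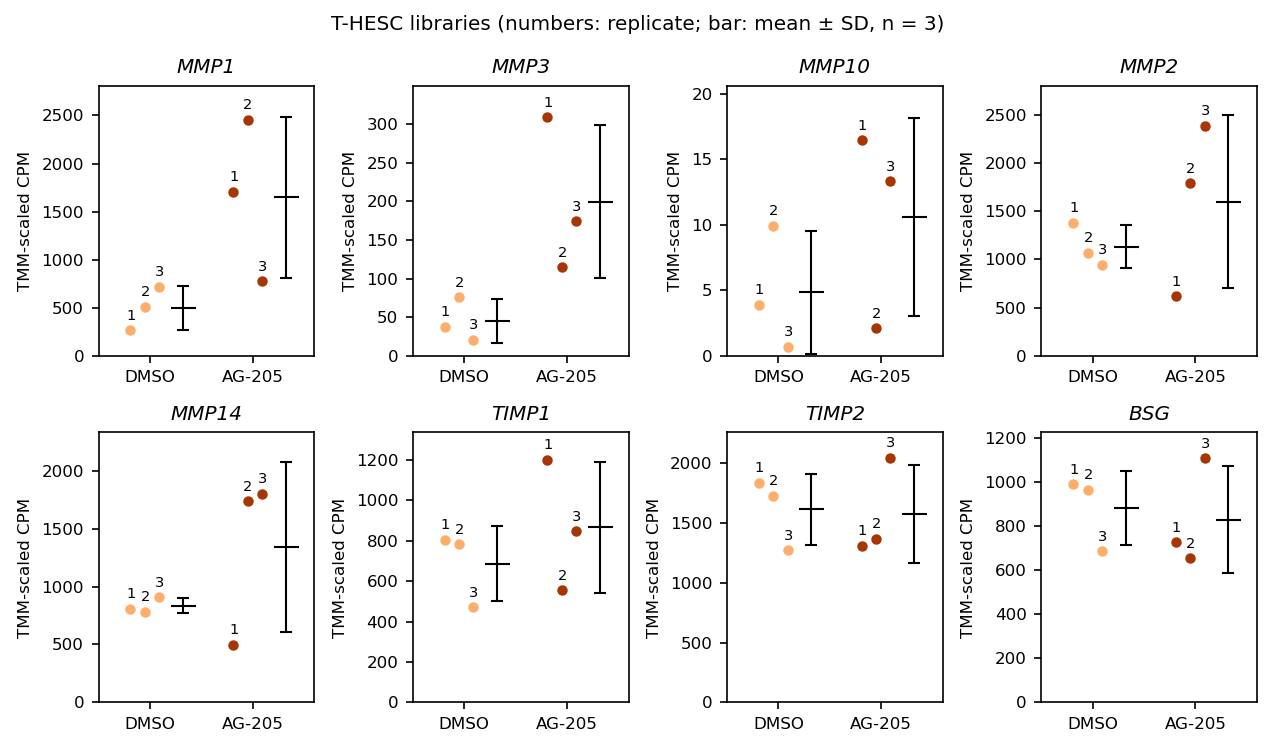
TMM-scaled CPM (linear axes from 0) of the 8 tested genes in T-HESC, as points numbered by replicate with the mean and SD (n = 3) beside them. MMP1 and MMP3 have every AG-205 library above every DMSO library, and the groups overlap for the other 6 genes.

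The other genes of T-HESC showed overlapping groups and wide intervals. MMP10 was at 16.5, 2.11 and 13.3 CPM with AG-205 and at 3.92, 9.94 and 0.699 CPM with DMSO, so that AG-205 replicate 2 lay below a pair of the DMSO libraries. Its log2 fold change was 1.10 (SE 0.918, 95% interval -1.02 to 3.22, adjusted p = 0.993, edgeR's quasi-likelihood test). When single libraries were left out it ran from 0.59 (DMSO replicate 3) to 2.17 (DMSO replicate 2). MMP2 was at 622, 1788 and 2388 CPM with AG-205 and at 1382, 1070 and 944 CPM with DMSO, and MMP14 at 497, 1734 and 1800 CPM against 809, 784 and 909 CPM. For both genes AG-205 replicate 1 was the lowest of the 6 libraries and AG-205 replicates 2 and 3 were the highest.

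The log2 fold changes of the gelatinase and its activator were 0.48 (SE 0.455) and 0.67 (SE 0.447), each with an adjusted p of 0.993 in edgeR's quasi-likelihood test. Without AG-205 replicate 1 they were 0.86 (adjusted p = 0.251) for MMP2 and 1.06 (adjusted p = 0.0562) for MMP14, and without AG-205 replicate 3 they were 0.09 (adjusted p = 0.954) and 0.41 (adjusted p = 0.755). Over all alternatives the adjusted p ran from 0.251 to 1 for MMP2 and from 0.0562 to 1 for MMP14, and the 95% intervals of the log2 fold changes reached from -0.58 to 1.53 and from -0.37 to 1.70.

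The inhibitors and basigin did not differ beyond the spread between T-HESC libraries. TIMP1 was at 1201, 554 and 847 CPM with AG-205 and at 806, 784 and 471 CPM with DMSO (log2 fold change 0.33, SE 0.363), and its value was -0.002 without AG-205 replicate 1. TIMP2 was at 1310, 1370 and 2046 CPM against 1839, 1730 and 1274 CPM (log2 fold change -0.05, SE 0.29). BSG was at 727, 653 and 1107 CPM against 989, 965 and 686 CPM (log2 fold change -0.10, SE 0.296). For TIMP2 and BSG the single highest or lowest libraries lay in opposite directions, with AG-205 replicate 3 high and DMSO replicate 3 low, and all 3 genes had an adjusted p of 0.993 (edgeR's quasi-likelihood test). TIMP3 had 0, 2 and 5 counts with AG-205 and 7, 11 and 0 with DMSO, too few to test, with a ratio of summed counts of 0.382 (95% interval 0.135 to 0.958, for counting error only).

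The members did not all vary together from library to library in T-HESC, but some of them did. MMP2, TIMP1, TIMP2 and BSG were highest in DMSO replicate 1 and lowest in DMSO replicate 3. MMP2, MMP14 and TIMP2 were lowest in AG-205 replicate 1 and highest in AG-205 replicate 3. Within the AG-205 group MMP3, MMP10, TIMP1 and MMP12 were all highest in replicate 1 and lowest in replicate 2, whereas MMP1 was highest in replicate 2 and lowest in replicate 3. Within the DMSO group MMP3, MMP10 and MMP12 were highest in replicate 2 and lowest in replicate 3, the library in which MMP1 was highest. MMP12 ranged from 1.88 to 34.8 CPM with AG-205 and from 0.599 to 11.7 CPM with DMSO. IL1B, a cytokine known to induce metalloproteinases in stromal cells, ranged from 0.226 to 48.3 CPM with AG-205 and from 0.0999 to 15.2 CPM with DMSO, and it was lowest in the same libraries as MMP10. The part of IL1B in these levels was not tested. The leukocyte markers summed to 1.5 to 2.12 CPM with AG-205 and 3.0 to 4.59 CPM with DMSO in T-HESC, with 3 to 4 of the 4 genes detected with AG-205 and 3 of 4 with DMSO, where CD68 had no count. PTPRC, which marks leukocytes, had 7, 1 and 5 counts against 18, 17 and 15. The 8 stromal markers summed to 12800 to 20600 CPM with AG-205 and 17200 to 27100 CPM with DMSO, with all 8 detected in every library. The groups did not overlap for the collagen gene COL1A1, lower with AG-205 (log2 fold change -1.10, adjusted p = 0.98, edgeR's quasi-likelihood test), and overlapped for COL3A1 (-1.06, adjusted p = 0.863). Of the 8 stromal markers, 6 had a negative log2 fold change and 2, VIM (0.26) and LUM (0.08), a positive one. The 6 epithelial markers summed to 221 to 387 CPM with AG-205 and 238 to 342 CPM with DMSO, with KRT18 below DMSO in all AG-205 libraries (-1.47, adjusted p = 0.664) and KRT19 above (1.05, adjusted p = 0.312, called by DESeq2). The part of these markers in the values of MMP1 and MMP3 was not tested.

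In HEC-1A, no member passed the test. The AG-205 libraries lay slightly above DMSO for TIMP1 and TIMP2 and below for MMP14, and the groups overlapped for BSG. Of the 4 members tested, 0 were called, against 2.78% of the 14122 genes tested, and 1 (TIMP2) had an unadjusted p under 0.05, as had 3693 of all genes (edgeR's quasi-likelihood test). DESeq2 also called 0 members, and 294 genes in all. The groups were apart for 3 of the 4 members, TIMP1 and TIMP2 above and MMP14 below DMSO, where 16.4% and 15% of all genes tested lay wholly above or below.

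TIMP2 was at 23.8, 24.9 and 26.0 CPM with AG-205 and at 19.9, 21.9 and 21.5 CPM with DMSO, and TIMP1 at 158, 156 and 179 CPM against 154, 135 and 146 CPM. The AG-205 libraries of both inhibitors lay above all DMSO libraries, by narrow margins. The log2 fold changes were 0.24 (SE 0.106, adjusted p = 0.177) for TIMP2 and 0.18 (SE 0.096, adjusted p = 0.264) for TIMP1 in edgeR's quasi-likelihood test. MMP14 was at 1.64, 1.40 and 1.56 CPM with AG-205 and at 2.06, 2.39 and 1.98 CPM with DMSO, all AG-205 libraries being lower. Its log2 fold change was -0.48 (SE 0.248, 95% interval -1.02 to 0.06, adjusted p = 0.243, edgeR's quasi-likelihood test). These values rest on 13 to 30 counts in a library. BSG was at 722, 680 and 706 CPM against 737, 682 and 679 CPM (log2 fold change 0.01, SE 0.0897, 95% interval -0.19 to 0.20, adjusted p = 0.967, edgeR's quasi-likelihood test).

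The remaining members were too low in HEC-1A to be tested. MMP1 had 11, 7 and 3 counts with AG-205 and 3, 4 and 5 with DMSO, a ratio of 1.72 (95% interval 0.807 to 3.83). MMP2 had 7, 2 and 8 counts against 6, 11 and 6, a ratio of 0.725 (95% interval 0.364 to 1.42), and both intervals cover counting error only. MMP3 had no count with AG-205 and 1 in each DMSO library, MMP10 had 1 count and TIMP3 had 1 count in 6 libraries, so a difference was not detectable at this depth.

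**Figure D4:**
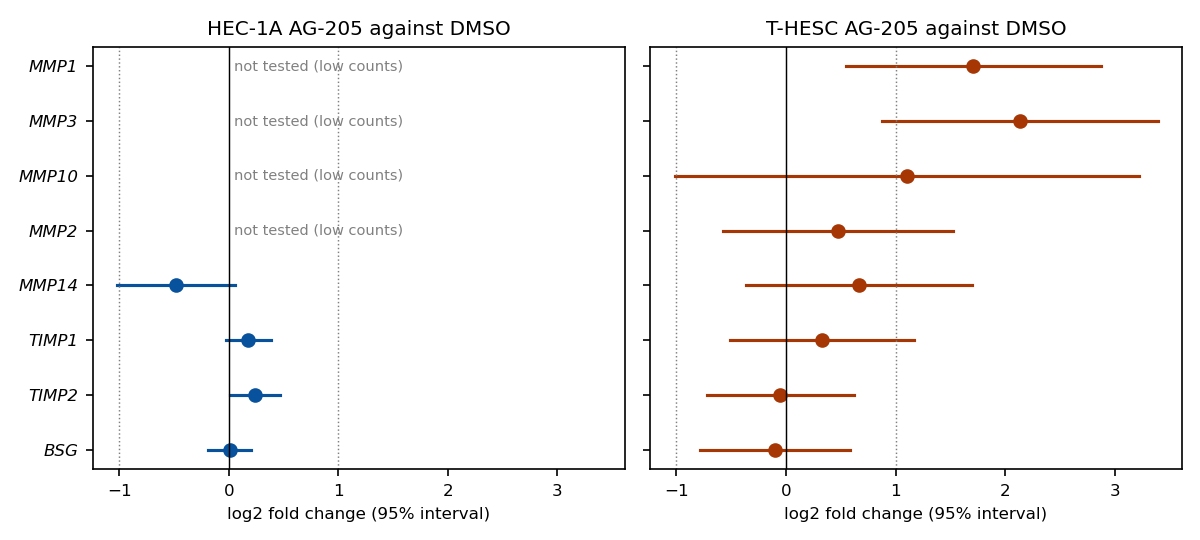
Log2 fold change of AG-205 against DMSO with its 95% interval for each line, from edgeR's quasi-likelihood fit, with dotted lines at the fold limits of -1 and 1. The intervals of MMP1 and MMP3 in T-HESC lie above 0. Those of the 4 genes tested in HEC-1A are narrower and stay below 0.47 at their upper end, and only that of TIMP2 lies above 0, from 0.007.

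The effect of AG-205 was not shown to differ between the lines for any member. Of the 8 tested for the difference (T-HESC minus HEC-1A), 0 were called, against 0.174% of the 16132 genes tested, 0 had an unadjusted p under 0.05 and DESeq2 called 0 (edgeR's quasi-likelihood test over all 12 libraries). MMP1, MMP2, MMP3 and MMP10 passed the filter on low counts here through T-HESC alone, so the 0 says little about them. MMP14 came nearest, at 1.17 (SE 0.58, 95% interval -0.09 to 2.43, adjusted p = 0.819). Without T-HESC AG-205 replicate 1 it was 1.57 and was called (adjusted p = 0.00601, edgeR's quasi-likelihood test), so the call turned on 1 library, and over all alternatives its adjusted p ran from 0.00601 to 1. The difference was 0.98 (SE 0.938) for MMP1, 0.91 (SE 0.87) for MMP2, 0.16 (SE 0.375) for TIMP1, -0.27 (SE 0.288) for TIMP2 and -0.09 (SE 0.299) for BSG. The values of MMP1 and MMP2 rest on 2 to 11 counts in a HEC-1A library. For MMP3 and MMP10, which were at the floor in HEC-1A, no size of the difference is given.

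Levels were compared between genes as CPM per kb of exon length, the union of annotated exons. In T-HESC with DMSO the order was TIMP1 (475), TIMP2 (260), MMP2 (241), BSG (199), MMP1 (182), MMP14 (180), MMP3 (24.2), MMP10 (2.76), TIMP3 (0.104) and MMP7 (0). TIMP1 lay apart from TIMP2, the libraries of neighbours from TIMP2 to MMP14 overlapped, and MMP3 and MMP10 were each apart from their neighbours. In T-HESC with AG-205 MMP1 (602) and TIMP1 (600) were level at the top, followed by MMP2 (340), MMP14 (291), TIMP2 (254), BSG (188) and MMP3 (108), and all neighbours down to MMP3 overlapped. MMP10 (6.04) and TIMP3 (0.0417) followed.

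In HEC-1A with DMSO the order was BSG (158), TIMP1 (100), TIMP2 (3.4), MMP14 (0.463), MMP2 (0.135), MMP1 (0.124), MMP3 (0.0453) and MMP10 (0.0151), all in CPM per kb. BSG, TIMP1, TIMP2 and MMP14 were each apart from the next gene, and MMP2 and MMP1 overlapped. With AG-205 the first 4 places were the same, at 159, 114, 4.01 and 0.332 CPM per kb. In this line the inhibitor TIMP1 and basigin stood above the 6 metalloproteinases of the list on this scale. MMP15, which is not on the list and was not scaled by length, was at 57 ± 1.18 CPM (SD, n = 3) in HEC-1A with DMSO. In T-HESC the ranges of MMP1 and MMP2 overlapped that of TIMP2 in both groups.

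**Figure D5:**
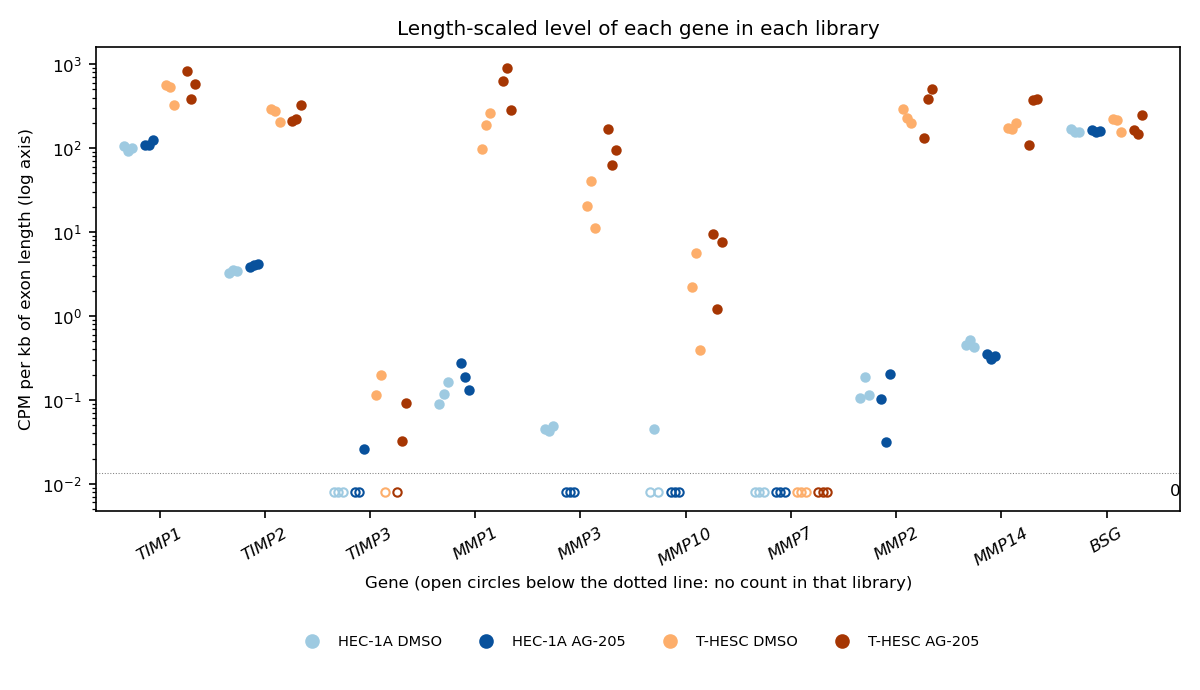
CPM per kb of exon length (log axis) of the 10 genes in each library, grouped as inhibitors, metalloproteinases and basigin, with open circles below the dotted line for libraries without a count. In HEC-1A TIMP1 and BSG are at 93.7 CPM per kb or more and no other gene exceeds 4.19, and in T-HESC TIMP1, TIMP2, MMP1, MMP2, MMP14 and BSG lie between 96.7 and 897 CPM per kb.

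Ratios of enzyme to inhibitor were taken within each library from the length-scaled levels. Of 5 ratios computed, those given were chosen after their values were seen. MMP3 to TIMP1 was 0.201, 0.162 and 0.161 in T-HESC with AG-205 and 0.0368, 0.0755 and 0.0345 with DMSO. All AG-205 libraries were higher, and they were closer to each other than the levels of MMP3 itself. MMP1 to TIMP1 was 0.751, 2.34 and 0.486 against 0.173, 0.346 and 0.806, and the groups overlapped. MMP14 to TIMP2 was 0.0924, 0.0757 and 0.0805 in HEC-1A with AG-205 and 0.139, 0.147 and 0.124 with DMSO, all AG-205 libraries being lower. In T-HESC it was 0.51, 1.7 and 1.18 with AG-205 and 0.591, 0.608 and 0.959 with DMSO, where the groups overlapped. No test was made on these ratios.

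Genes of the same pathway were counted from lists of related genes. These lists were chosen with earlier results of these data known, so their counts are a description and no test of a pathway. In HEC-1A, where 2.58% of all genes tested were called higher with AG-205, 3 of 6 tested activators of proenzymes rose with AG-205, namely the plasminogen activators PLAT (log2 fold change 2.62, SE 0.202) and PLAU (1.20, SE 0.0889) and the urokinase receptor PLAUR (1.73, SE 0.266). Of 10 tested regulators of metalloproteinase transcription, 5 rose, the cytokines IL1B (1.28, SE 0.312) and TGFB1 (1.34, SE 0.151) and the transcription factors FOS (1.57, SE 0.286), JUN (1.00, SE 0.13) and ETS1 (1.15, SE 0.235). FOS and JUN form AP-1, and the part of AP-1 in the level of any member was not tested. IL1B rose from 7 to 8 counts in a library to 12 to 22, so its level in HEC-1A was low. Of 5 other metalloproteinases tested, MMP11, stromelysin-3, rose by 1.20 (SE 0.292) and MMP25, a membrane-bound enzyme, by 1.12 (SE 0.312) on the log2 scale. None of the 8 adamalysins, 7 partners of basigin and 4 other inhibitors or clearance genes tested was called by either tool, and 1, 4 and 1 of them had an unadjusted p under 0.05 in edgeR. Of these, SLC16A3, a lactate transporter (0.97, adjusted p = 0.00033), SLC16A1 (-0.49, adjusted p = 0.0164), THBS1 (-0.82, adjusted p = 0.00208) and ADAM10 (-0.34, adjusted p = 0.0366) passed the adjusted p of edgeR's quasi-likelihood test and missed only the fold limit, as did PCSK5 (-0.62, adjusted p = 0.00249) and JUNB (0.90, adjusted p = 0.000178) on the other lists. Over all 14122 genes tested, 3693 had an unadjusted p under 0.05, and 1643 passed the adjusted p with no fold limit. DESeq2 also called the 3 activators, KRT19, CLDN4, TGFB1, FOS and ETS1, but not IL1B, JUN, MMP11 or MMP25. Of the 6 epithelial markers, 2 were called, KRT19 (1.09, SE 0.0861) and CLDN4 (1.22, SE 0.109). KRT8 (0.48), KRT18 (0.15) and CDH1 (0.07) were below the fold limit, and EPCAM was slightly lower (-0.10). The sum of the 6 went from 1300 to 1460 CPM with DMSO to 1980 to 2050 CPM with AG-205, with CLDN4 going from a mean of 302 to 703 CPM. All calls not credited to DESeq2 are by edgeR's quasi-likelihood test over all genes, the adjusted p-values of the called genes running from 2.5e-06 to 0.0364.

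In T-HESC 0 of the pathway genes on these lists were called by edgeR's quasi-likelihood test and 0 by DESeq2. Those tested in edgeR were 14 regulators, 11 adamalysins, 7 other metalloproteinases, 7 partners of basigin, 4 activators and 4 other inhibitors or clearance genes. Of them 3 had an unadjusted p under 0.05, as had 740 of all 13753 genes tested. MMP15, a membrane-bound enzyme (log2 fold change 1.37, SE 0.389, adjusted p = 0.504), PLAUR (0.77, SE 0.226, adjusted p = 0.532) and ADAMTS4 (0.98, SE 0.369, adjusted p = 0.763) were these 3. Their AG-205 libraries lay above all DMSO libraries, as did those of 6.23% of all genes tested. The median log2 fold change was 0.35 for the 14 regulators tested, 0.06 for the 4 activators and 0.18 for the 7 other metalloproteinases, against 0.02 for all genes. For the difference between the lines 0 of the pathway genes were called by edgeR and 1, PLAT, by DESeq2. At an unadjusted p under 0.05 edgeR found 1 of 12 adamalysins, 3 of 8 partners of basigin, 1 of 8 other metalloproteinases, 2 of 6 activators and 1 of 15 regulators. Over all genes it found 1025 of the 16132 tested.

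Between the lines in DMSO, where 22.3% of all genes tested were called higher and 22.3% lower in T-HESC, counts of list genes near these shares are not particular to a list. T-HESC was higher for the inhibitors and clearance genes in 4 of 4 tested, which were RECK, a membrane-anchored inhibitor, LRP1, an endocytic receptor that clears metalloproteinases, THBS1 and THBS2. The other metalloproteinases MMP11, MMP16, MMP17 and MMP19 were higher and MMP15 lower, of 7 tested. Among 12 adamalysins ADAM9, ADAM12, ADAM19, ADAMTS1, ADAMTS4, ADAMTS5 and ADAMTS6 were higher and ADAMTS9 lower. Among 6 activators PLAT and PLAUR were higher, and PLAU, PCSK5 and ST14, the epithelial serine protease matriptase, were lower. Among 8 partners of basigin the lactate transporters SLC16A3 and SLC16A7 and the hyaluronan receptor CD44 were higher and SLC16A8 was lower. Of 11 regulators TGFB1, TGFB2, FOS, FOSL1, JUN, ETS1, ETS2 and PGR, the nuclear progesterone receptor, were higher and ETV4 lower. PTPRC was also higher in T-HESC, at 15 to 18 counts in a library. Several of the genes called here passed the filter on low counts through 1 line alone, so their calls add nothing to the counts. With DMSO, PGR and PTPRC had no count in HEC-1A, and MMP17, SLC16A7, ADAM12 and ADAM19 had 1 to 3 in sum. ST14, SLC16A8 and ADAMTS9 had 4 to 8 counts in sum in T-HESC with DMSO.

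The genes with the most similar pattern to each member were those with the highest Pearson correlation of log2 CPM over the 12 libraries. The libraries fall into 2 lines whose levels lie far apart for most of these genes, so the values are a description and carry no test. They were MMP14 and ADAM12 for MMP2 (r = 0.997 for both), TNFRSF1B and TSHZ3 for MMP14 (0.998), KCND2 and AGAP2-AS1 for MMP1 (0.997), and RND3 (0.998) and TFPI2 (0.996) for MMP3. MMP10 was nearest to an unnamed gene, ENSG00000277511 (0.997), and to its cluster neighbour MMP12 (0.992). For TIMP1 they were ZNF563 and ENSG00000280302 (0.996), for TIMP2 MIR34AHG and COL6A2 (0.999), and for BSG TMEM132A (0.972) and HERC6 (0.959).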

How the data were processed

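RNA from 12 cultures of HEC-1A and T-HESC cells (15 µM AG-205 or DMSO, 32 h, 3 libraries per group) was selected for polyA and sequenced in pairs. Per the labels and the study's methods, reads were trimmed with Trimmomatic 0.38, aligned to GRCh38 with HISAT2 2.1.0 and counted per gene with featureCounts (Subread 2.0.0). The authors deposited raw counts for 58735 genes, of which 23756 had no count, and strandedness and the handling of reads that match several places were not given in the sources used here. Strand and multiple matches can therefore affect overlapping genes. Groups came from the labels.

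Tests used edgeR 4.0.16 under R 4.3.3 (TMM scaling, filterByExpr, quasi-likelihood test, p-values adjusted by Benjamini-Hochberg across every tested gene) and were run in each line, between lines in DMSO, and for the difference of the effect over 12 libraries. A call needed an adjusted p under 0.05 with a log2 fold change beyond -1 or 1, and SEs and 95% intervals were derived from the F value. The study used DESeq2, here version 1.42.0 as an alternative, with RLE size factors, no filter, the replicate block, no fold limit, all 12 libraries in one fit and leaving out single libraries. The procedure was tested on simulated data. Exon lengths came from GENCODE 44, and promoters from RefSeq. Intervals of count ratios were exact binomial. Plots were drawn with matplotlib 3.10.9.

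The members and the lists of related genes were chosen with earlier results of these data known. All members were named, with every list gene called in a comparison, the most abundant genes of a list without a call, and the genes whose log2 CPM (prior count of 2) correlated best with each member. Genes outside this rule were named after their values were seen.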

Additional observations from a re-analysis of the deposited data

How the results depend on the processing

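In T-HESC, DESeq2 and edgeR with no filter on low counts each called 2 members, MMP1 and MMP3, where every other setting run called 0, and the cause was not tested. Over all genes, DESeq2 called 116 and no filter 181 in T-HESC, where 11 were called, and 0 to 72 when single libraries were left out. For the difference between lines, leaving out single libraries gave 0 to 1 members (MMP14, without T-HESC AG-205 replicate 1) and 4 to 80 genes, against 28, and DESeq2 gave 86 genes and no filter 141. Pairing of libraries by replicate number was not shown. The deviations from the group means correlated at -0.425 to 0.206 for the same number and at -0.462 to 0.62 for unlike numbers. With 3 libraries per group this check cannot decide whether libraries were paired. A replicate block called 0 members in HEC-1A, 0 in T-HESC, 6 between lines and 0 (0 genes) for the difference. With no fold limit 1643 genes were called in HEC-1A and 10664 between lines, and the fit of all 12 libraries called 141 in HEC-1A and 160 in T-HESC. Values near 0 changed sign. BSG in HEC-1A was -0.014 with DESeq2 and -0.01 to 0.043 without single libraries. In T-HESC such ranges were -0.278 to 0.053 for TIMP2, -0.002 to 0.55 for TIMP1 and -0.362 to 0.024 for BSG, and for the difference between lines -0.15 to 0.38 for TIMP1 and -0.36 to 0.04 for BSG. Between lines 6 to 7 members were called without single libraries and 8 with DESeq2 or no filter. Of the 40 places of members in the length-scaled orders of the 4 groups, 35 were the same with the longest transcript as length and 36 to 40 without single libraries. With 3 cultures per group and the spread of T-HESC, changes like those of MMP2, MMP10 and MMP14 could not be told from no change, and counts of 30 or fewer limit MMP14 and the lower genes in HEC-1A.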
